A study of Mus musculus with 12 samples.

Results

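The 36 genes described here encode components of the PI3K, AKT and mTOR pathway and receptors and adaptors that feed it. They were chosen by name and known role, but with earlier results of these data known. All 36 were found by gene number among the 16300 genes of the deposited table. By role they are 3 catalytic and 3 regulatory PI3K subunits, 5 lipid or protein phosphatase genes, 6 genes for AKT, its activator PDK1 and AKT substrates, 3 genes for the TSC proteins and RHEB, 8 for mTOR complex subunits and S6 kinases, 5 receptors and 3 adaptors. All 36 passed the filter on low counts, so none was left out of a count below.

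RNA was sequenced from 12 samples of NIH-3T3 cells, fibroblasts of an immortal line derived from mouse embryos, kept for 24 h under 4 conditions with 3 samples each. TS cells received recombinant stanniocalcin-1 (STC-1) at 100 ng/mL together with TGF-β1 at 10 ng/mL. TGFb1 cells received TGF-β1 alone at 10 ng/mL, STC1 cells received STC-1 alone at 100 ng/mL, and Con cells received PBS. The series title ties STC-1, a secreted glycoprotein hormone, to scar formation and to activation of the PI3K/AKT pathway. The series text calls the samples of a group biological replicates, the labels do not say whether they were grown separately, and p-values then measure only the spread between these libraries. NIH-3T3 is 1 established line and stands for no primary fibroblast population.

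As background, receptor tyrosine kinases and their adaptors bring PI3K to the membrane, where it makes the lipid PIP3. PIP3 recruits PDK1 and AKT, AKT phosphorylates substrates such as the GSK3 kinases, TSC2 and PRAS40, and release of RHEB from TSC control switches on mTOR complex 1 and the S6 kinases. In fibroblasts the pathway is known for survival, growth and matrix synthesis downstream of growth factors and of TGF-β. Its activity is set largely by phosphorylation, which RNA levels do not measure.

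The libraries held between 16867563 and 18521810 expected counts. A gene was called at a Benjamini-Hochberg adjusted p under 0.05 over 11763 tested genes by the quasi-likelihood test of edgeR, and only called genes are said to have risen or fallen. Fold changes are log2 values, SE is the standard error of each, and CPM is the count scaled to the TMM-adjusted library size. Fibroblast markers summed to 18950 to 20117 CPM in TS, 19055 to 19615 CPM in TGFb1, 19493 to 20274 CPM in STC1 and 20315 to 21540 CPM in Con libraries, with none of the 11 at 0. In TGFb1 against Con libraries 5 of these 11 markers fell (45.5%) and none rose, beside 2.08% and 1.9% of all tested genes. In TS against Con libraries 5 fell (45.5%) and 2 rose (18.2%, S100a4 and Dcn), beside 2.88% and 3.18% of all tested genes. Those that fell were Pdgfra, Col1a2, Fn1, Pdgfrb and Col3a1 in both comparisons. The part of these markers in the results below was not tested. The highest sum in any library was 10.3 CPM for macrophage markers, 0.906 CPM for the epithelial markers matched (3 of 5) and 0.453 CPM for endothelial markers. Most of the macrophage sum came from Cd14 (mean 5.04 CPM) and Cd68 (3.5 CPM). Ptprc, Csf1r, Itgam and Adgre1 had means of at most 0.405 CPM. In bulk RNA, fewer cells of a type and less RNA per cell cannot be told apart.

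Transcript levels of the members spanned more than 2 orders of magnitude, from the adaptor gene Grb10 at the top to the mTOR inhibitor gene Deptor at the bottom. Levels between genes are compared as CPM per kilobase of transcript, as the mean ± SD over all 12 libraries. Grb10, an adaptor that binds insulin and IGF-1 receptors and is an mTORC1 substrate, stood highest at 147 ± 3.02 CPM per kilobase. It was followed by Ppp2r1a, the scaffold subunit of the phosphatase PP2A, at 131 ± 2.2 CPM per kilobase, by Akt1 at 86.5 ± 2.5, by the FGF receptor gene Fgfr1 at 71.1 ± 2.26 and by the GTPase gene Rheb at 61.2 ± 1.96. These 5 did not overlap with their neighbours in the order in any library. Deptor, an mTOR inhibitor, stood lowest at 0.277 ± 0.0486 CPM per kilobase, below Pik3cd, the PI3K catalytic subunit best known from leukocytes, at 0.707 ± 0.0768. Of the 35 neighbouring pairs in the order of levels, 20 overlapped between their library ranges, so most of the middle of the order is not resolved.

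**Figure D1:**
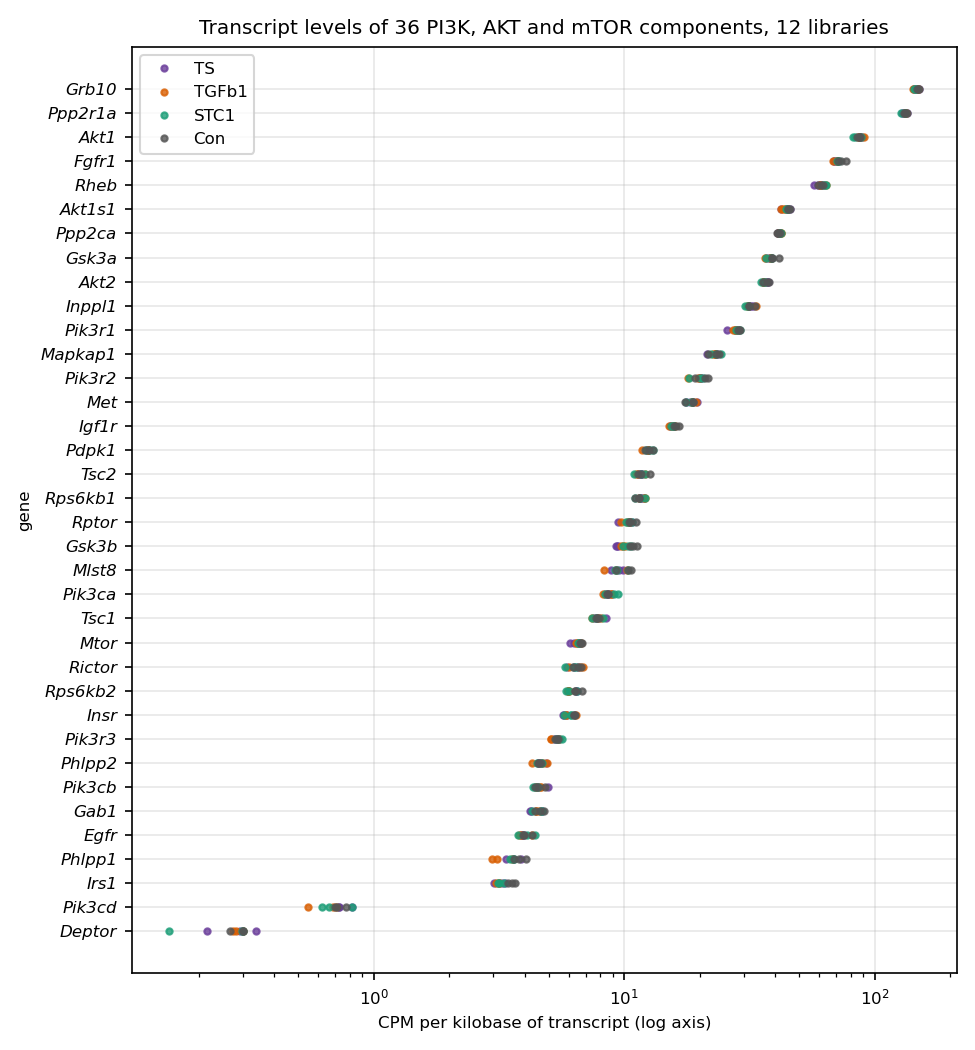
Levels of the 36 members as CPM per kilobase of transcript on a log axis, 1 point per library, coloured by group, with genes ordered by their mean. Grb10 (147 CPM per kilobase) is at the top and Deptor (0.277) at the bottom, and the 12 libraries of a gene lie close together next to the distance between genes.

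Within the PI3K enzymes, the regulatory subunit transcripts Pik3r1 and Pik3r2 exceeded the catalytic ones, and Pik3r3 stood below Pik3ca. Pik3r1, which encodes the p85α regulatory subunit, stood at 28 ± 0.935 CPM per kilobase and Pik3r2 (p85β) at 19.9 ± 1.05, against 8.71 ± 0.335 for Pik3ca (p110α) and 4.55 ± 0.188 for Pik3cb (p110β). Pik3r3, the gene of the p55γ subunit, stood at 5.36 ± 0.169. Akt1 at 86.5 exceeded Akt2 at 36.5 ± 0.847 CPM per kilobase in every library. Gsk3a and Gsk3b had similar CPM, 86.5 and 83.8 on average, but the listed transcript of Gsk3b is longer, so per kilobase Gsk3a stood at 38.3 ± 1.29 and Gsk3b at 10.1 ± 0.632. Among the member receptors Fgfr1 was followed by the HGF receptor gene Met at 18.49 ± 0.637 and by Igf1r at 15.7 ± 0.399 CPM per kilobase. Insr at 6.04 ± 0.262 and Egfr at 4.01 ± 0.21 CPM per kilobase stood below them. Mtor itself stood at 6.53 ± 0.202, Rictor of mTORC2 at 6.35 ± 0.32 and Rptor of mTORC1 at 10.4 ± 0.451. These values use 1 listed transcript per gene, and which isoforms the cells used was not measured.

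The members varied little across the 12 libraries. The coefficient of variation of CPM over all 12 libraries was smallest for the PP2A genes Ppp2ca (1.31%) and Ppp2r1a (1.68%) and for Grb10 (2.06%). It was largest for the 2 genes with the lowest counts, Deptor (17.6%) and Pik3cd (10.9%), and then for Phlpp1 (8.41%), Mlst8 (7.24%), Gsk3b (6.26%) and Irs1 (6.02%). Phlpp1, Gsk3b and Irs1 are the members that were called in TGFb1 against Con libraries. The coefficient includes the differences between groups, so their place in its order is no separate evidence for those calls. Mlst8, a subunit of both mTOR complexes, was called in none of the 8 comparisons.

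With TGF-β1 alone, transcripts of a phosphatase that dephosphorylates AKT (Phlpp1), of an AKT substrate kinase (Gsk3b) and of the main insulin and IGF-1 receptor adaptor (Irs1) fell, and no member rose. These were 3 of 36 members (8.33%), beside 3.99% of all tested genes called in TGFb1 against Con libraries, of which 2.08% of all fell and 1.9% rose. The fold changes of 29 of the 36 members were negative (80.6%), against 51.1% over all tested genes, and their median was -0.038 against -0.0022 over all tested genes. With the trend of fold change with transcript length removed the members' median was -0.015. In all, 7 members (19.4%) had an unadjusted p under 0.05, beside 17.7% of all tested genes.

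Gsk3b had 81.8, 83.85 and 80.5 CPM in TGFb1 libraries, against 87.2, 90.3 and 93.6 CPM in Con libraries. The groups did not overlap, and all 3 TGFb1 libraries lay below the lowest Con library. GSK3β is a kinase of glycogen metabolism and of β-catenin turnover that AKT inhibits by phosphorylation. Its log2 fold change was -0.14 (SE 0.037, edgeR adjusted p = 0.0188). The adjusted p was 0.057 without Con replicate 2, 0.113 without Con replicate 3, 0.0514 without TGFb1 replicate 1, 0.113 without TGFb1 replicate 3, and 0.0937 with a length trend removed.

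Phlpp1 had 22.1, 18.54 and 19.3 CPM in TGFb1 libraries, against 25.2, 22.5 and 23.7 CPM in Con libraries. The groups did not overlap, although TGFb1 replicate 1 lay only just below the lowest Con library. PHLPP1 removes the phosphate from the hydrophobic motif of AKT. Its log2 fold change was -0.25 (SE 0.0677, edgeR adjusted p = 0.0188). The call was lost when Con replicate 1 (adjusted p = 0.195), TGFb1 replicate 2 (0.15) or TGFb1 replicate 3 (0.109) was left out, and DESeq2 gave no adjusted p for this gene or for Irs1.

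Irs1 had 28, 28.9 and 28.8 CPM in TGFb1 libraries, against 32.6, 33.4 and 31.4 CPM in Con libraries. All TGFb1 libraries lay below all Con libraries. Its log2 fold change was -0.18 (SE 0.055, edgeR adjusted p = 0.0416). The adjusted p was 0.164 without Con replicate 1, 0.152 without Con replicate 2, 0.116, 0.089 and 0.109 without TGFb1 replicates 1, 2 and 3, and 0.12 with a length trend removed.

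**Figure D2:**
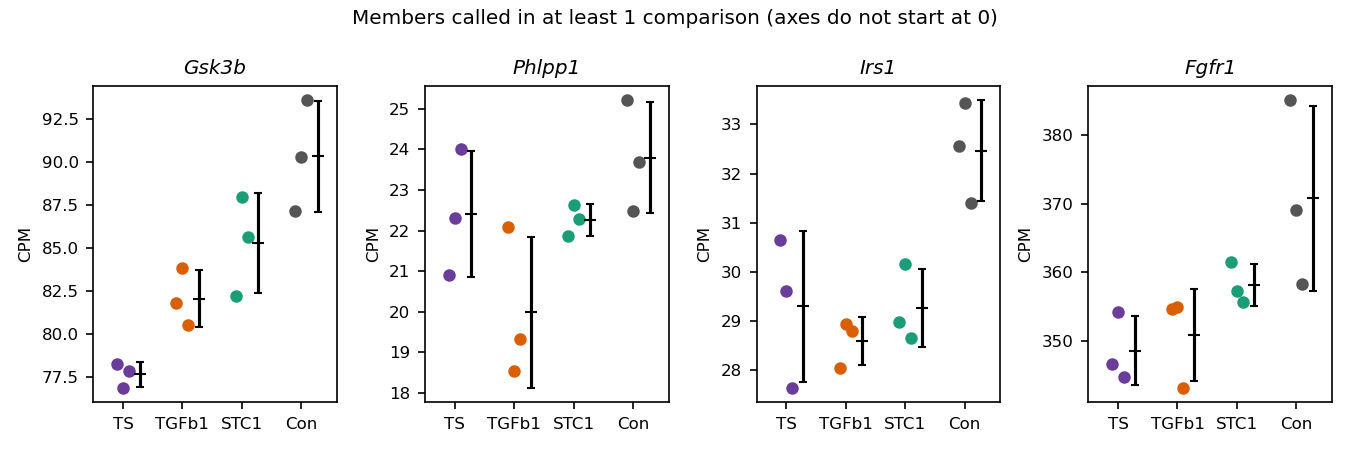
CPM of the 4 members called in at least 1 comparison, 1 point per library, with the mean and SD (n = 3) of each group beside the points; the axes do not start at 0. For Gsk3b the TS libraries are lowest (76.8 to 78.3 CPM) and the Con libraries highest on average, and for Irs1 the Con libraries lie above all others.

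The windows before the starts of these 3 genes are shown because they fell together, and they differ in their promoter elements. Each is the 250 bases before the listed start in RefSeq, build GRCm38.p6, given 5′ to 3′ on the gene's strand. Capitals mark CCAAT (the box bound by NF-Y), GGGCGG (the GC box bound by SP1) and CACGTG (the E-box bound by MYC and USF factors), on either strand, and matches that overlap each run together. The windows are chr16:38088751-38089000 on the plus strand for Gsk3b, chr1:106171619-106171868 on the plus strand for Phlpp1 and chr1:82291440-82291689 on the minus strand for Irs1.
Gsk3b: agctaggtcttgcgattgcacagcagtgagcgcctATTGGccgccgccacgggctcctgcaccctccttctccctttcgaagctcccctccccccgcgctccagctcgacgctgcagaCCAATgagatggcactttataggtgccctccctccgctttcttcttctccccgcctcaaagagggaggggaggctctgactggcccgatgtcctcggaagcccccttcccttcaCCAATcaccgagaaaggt
Phlpp1: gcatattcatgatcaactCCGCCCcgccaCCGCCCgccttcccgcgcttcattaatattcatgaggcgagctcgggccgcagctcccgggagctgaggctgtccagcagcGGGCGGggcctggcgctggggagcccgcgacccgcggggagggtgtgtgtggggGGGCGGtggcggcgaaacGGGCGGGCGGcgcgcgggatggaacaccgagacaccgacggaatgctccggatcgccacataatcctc
Irs1: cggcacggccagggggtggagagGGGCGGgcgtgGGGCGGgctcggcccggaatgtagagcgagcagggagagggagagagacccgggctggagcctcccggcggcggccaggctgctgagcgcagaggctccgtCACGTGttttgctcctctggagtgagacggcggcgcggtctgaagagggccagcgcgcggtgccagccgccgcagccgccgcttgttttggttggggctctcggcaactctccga
Gsk3b held 3 CCAAT matches and no GC box, Phlpp1 held 6 GC box matches and no CCAAT, and Irs1 held 2 GC box matches and 1 E-box. Of 32851 such windows in the table, 33.8% held CCAAT, 32.7% held GGGCGG and 6.02% held CACGTG, and 2.79% held CCAAT at least 3 times. GGGCGG occurred at least 3 times in 8.47% and at least 4 times in 4.09% of them. None of the 3 motifs was found in all 3 windows. A match is a description of letters and not evidence of binding.

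None of the 6 PI3K subunit genes was called, the smallest adjusted p being 0.226 for Pik3r2 at -0.1, and the catalytic subunit genes Pik3ca and Pik3cb had 0.016 and -0.0081. Pik3cd, one of the 2 genes with the lowest counts, was at -0.17 with a 95% interval of -0.48 to 0.14. Akt1 was at 0.029 (SE 0.0295, 95% interval -0.03 to 0.088) and Akt2 at -0.04 (SE 0.0299, 95% interval -0.1 to 0.02), neither called. Akt1s1, which encodes the mTORC1 inhibitor PRAS40, was at -0.076 and Gsk3a at -0.074, and neither was called although their TGFb1 and Con libraries did not overlap. In all, 8 members were lower without overlap of the groups and none was higher, beside 10.9% and 10.4% of all tested genes. The phosphatase genes other than Phlpp1 lay between -0.0083 for the lipid phosphatase gene Inppl1 and 0.018 for Ppp2ca, and Phlpp2, the paralog of Phlpp1, was at 0.017 (SE 0.0523).

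None of the TSC, RHEB, mTOR complex and S6 kinase genes was called with TGF-β1 alone. Tsc1 was at -0.0074 and Tsc2 at -0.045, and Rheb at 0.025. The lowest values were those of Mlst8 at -0.12 (SE 0.063, adjusted p = 0.299) and of Rps6kb2, the S6 kinase 2 gene, at -0.12 (SE 0.0571, adjusted p = 0.257), whose groups did not overlap. Mtor was at -0.036 (SE 0.0416, 95% interval -0.12 to 0.047). The largest positive value among the members was that of Rps6kb1, the S6 kinase 1 gene, which had 66.8, 66.4 and 63.2 CPM in TGFb1 libraries, against 63.2, 63.3 and 61.2 CPM in Con libraries. The 2 groups of Rps6kb1 overlapped by 1 library (log2 fold change 0.065, SE 0.0408, edgeR adjusted p = 0.42). Met, the next by p among positive values, had 127, 126 and 131 CPM in TGFb1 libraries, against 119, 128 and 128 CPM in Con libraries, and these overlapped (0.039, SE 0.0353, adjusted p = 0.624).

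Among the member receptors Fgfr1, the most abundant of them, was the closest to a call. It had 354.7, 354.9 and 343 CPM in TGFb1 libraries, against 385, 369 and 358 CPM in Con libraries. The groups did not overlap (log2 fold change -0.08, SE 0.0276, edgeR adjusted p = 0.0873). Igf1r was at -0.054, Insr at -0.059 and Egfr at -0.034, none called. For the 34 members above 10 CPM the 95% intervals of this comparison ran from -0.39 at the lowest limit, for Phlpp1, to 0.15 at the highest, for Rps6kb1.

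**Figure D3:**
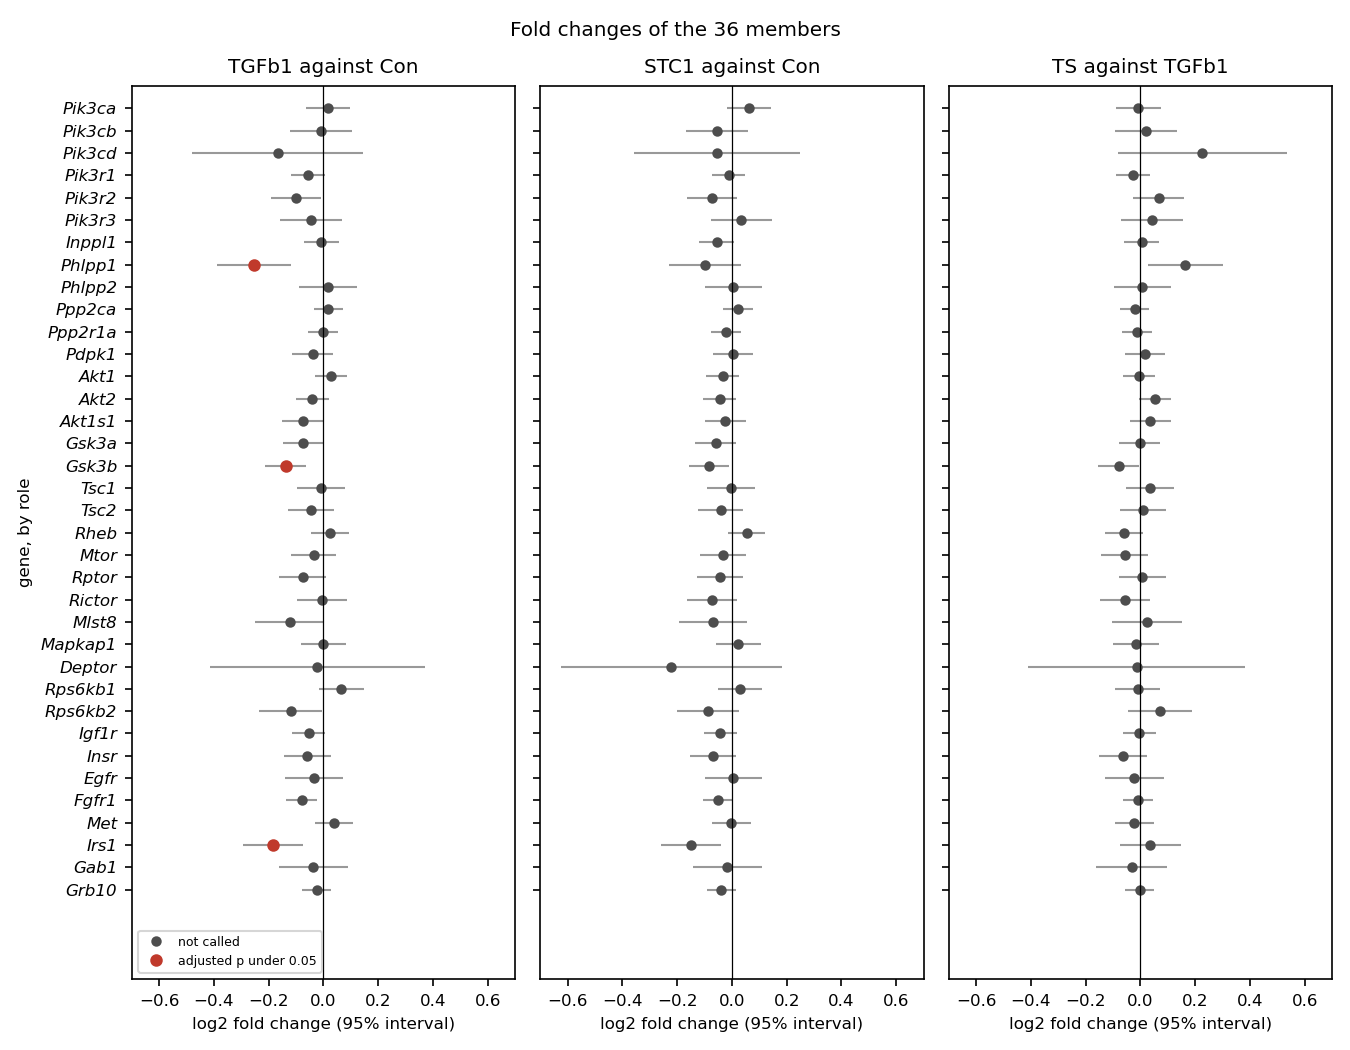
Log2 fold changes of the 36 members with 95% intervals in TGFb1 against Con, STC1 against Con and TS against TGFb1 libraries, with called genes in red. In the first panel 3 members are called, all to the left of 0, and in the other panels none is; the widest intervals belong to Deptor and Pik3cd.

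STC-1 alone changed no member by the test. In STC1 against Con libraries none of the 36 was called by edgeR and none by DESeq2, which gave an adjusted p for 9 of them, and 2 had an unadjusted p under 0.05, Irs1 and Gsk3b. Over all tested genes 0.051% were called and 10.6% had an unadjusted p under 0.05, beside 5.56% of the members. The fold changes of 27 members were negative (75%), against 50.9% over all tested genes. The members' median was -0.041, against -0.0018 over all tested genes. It was -0.027 with the length trend removed and -0.023 without Con replicate 1. STC1 and TGFb1 libraries were both compared with the same 3 Con libraries, so their fold changes are not independent.

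Irs1 had 29, 30.2 and 28.7 CPM in STC1 libraries, against 32.6, 33.4 and 31.4 CPM in Con libraries. The groups did not overlap (log2 fold change -0.15, SE 0.0543, edgeR adjusted p = 0.287). Gsk3b had 82.2, 88 and 85.6 CPM in STC1 libraries, against 87.2, 90.3 and 93.6 CPM in Con libraries. Its groups overlapped by 1 library (-0.082, SE 0.0365, adjusted p = 0.417). On the positive side Rheb had 112.6, 110.9 and 114 CPM in STC1 libraries, against 108.5, 110.6 and 105.9 CPM in Con libraries, without overlap (0.054, SE 0.0341, adjusted p = 0.601). Pik3ca had 74.5, 80.9 and 84 CPM in STC1 libraries, against 76.8, 76.4 and 76.2 CPM in Con libraries, and the STC1 libraries lay on both sides (0.062, SE 0.0399, adjusted p = 0.61). Without overlap of the groups 5 members were lower and 1 was higher, beside 7.52% and 7.67% of all tested genes. Among the central kinases, Akt1 was at -0.034 (95% interval -0.093 to 0.025), Akt2 at -0.045 (-0.1 to 0.014) and Mtor at -0.033 (-0.12 to 0.05).

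Added to TGF-β1, STC-1 again changed no member by the test. In TS against TGFb1 libraries none of the 36 was called by edgeR or by DESeq2, and 2 had an unadjusted p under 0.05, Phlpp1 and Gsk3b, with 0% of all tested genes called and 6.5% at that unadjusted level. Phlpp1 had 20.9, 22.3 and 24 CPM in TS libraries, against 22.1, 18.54 and 19.3 CPM in TGFb1 libraries. The 2 groups overlapped (log2 fold change 0.16, SE 0.0687, 95% interval 0.026 to 0.3, edgeR adjusted p = 0.7). Gsk3b had 78.3, 76.8 and 77.9 CPM in TS libraries, against 81.8, 83.85 and 80.5 CPM in TGFb1 libraries. It was the 1 member that was lower without overlap (-0.08, SE 0.0379, adjusted p = 0.729), beside 5.45% of all tested genes. Pik3cd and Akt2 were higher without overlap, Pik3cd with 4.02, 3.57 and 3.57 CPM in TS libraries, against 3.39, 2.69 and 3.47 CPM in TGFb1 libraries (0.23, SE 0.154, adjusted p = 0.863). Akt2 had 171, 169.6 and 168 CPM in TS libraries, against 163, 163 and 164 CPM in TGFb1 libraries, without overlap but not called, as 5.49% of all tested genes were higher without overlap (0.054, SE 0.0299, adjusted p = 0.824). The members' median was -0.0036, and for the 34 above 10 CPM the limits of the 95% intervals ran from -0.16 for Gab1 to 0.3 for Phlpp1.

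Averaged over both backgrounds, STC1 and TS together against Con and TGFb1 together, no member was called by edgeR, nor by DESeq2 among the 5 of 36 to which it gave an adjusted p, with 0.085% of all tested genes called by edgeR. An unadjusted p under 0.05 was found for 3 members, beside 8.33% of all tested genes, and the smallest was that of Gsk3b at -0.081 (SE 0.0263, adjusted p = 0.286). For the 34 members above 10 CPM the limits of the 95% intervals of this average ran from -0.14 for Irs1 to 0.13 for Phlpp1.

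In TS against Con libraries Gsk3b and Fgfr1 fell and no member rose, 2 of 36 (5.56%) beside 6.06% of all tested genes called, of which 2.88% of all fell and 3.18% rose. Gsk3b had 78.3, 76.8 and 77.9 CPM in TS libraries, against 87.2, 90.3 and 93.6 CPM in Con libraries, and the groups were far apart. Its log2 fold change was -0.22 (SE 0.0372, edgeR adjusted p = 7.39e-05). It was called in all 12 fits that left out 1 library, with values between -0.24 and -0.19, and with the length trend removed (-0.17, adjusted p = 0.00228). Fgfr1 had 347, 354 and 345 CPM in TS libraries, against 385, 369 and 358 CPM in Con libraries. Its log2 fold change was -0.089 (SE 0.0276, adjusted p = 0.039). The call was lost without Con replicates 1 or 2 (adjusted p = 0.344 and 0.0986), without TS replicates 1 or 3 (0.149 and 0.102), without STC1 replicates 2 or 3 (0.0542 and 0.0506), with only the 2 compared groups in the fit (0.0805) and with the length trend removed (0.221). Irs1 at -0.15 (adjusted p = 0.101), Insr at -0.12 (0.0768), Pik3r1 at -0.083 (0.0975) and Phlpp1 at -0.089 (0.495) were not called. The median of the members was -0.034, and it was -0.0088 with the length trend removed and -0.017 without Con replicate 1.

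With STC-1 present throughout, TGF-β1 changed no member by the test. In TS against STC1 libraries, which use no Con library, none of 36 was called by edgeR, nor by DESeq2 among the 11 to which it gave an adjusted p, with 0.298% of all tested genes called by edgeR, and 3 members had an unadjusted p under 0.05, beside 9.17% of all tested genes. Gsk3b had 78.3, 76.8 and 77.9 CPM in TS libraries, against 82.2, 88 and 85.6 CPM in STC1 libraries. The groups did not overlap, and its log2 fold change of -0.14 (SE 0.0375, adjusted p = 0.125) was close in size to that of -0.14 in TGFb1 against Con libraries. Phlpp1 was at 0.0079 (SE 0.0667) and Irs1 at 0.0031 (SE 0.0556). In this comparison 18 members had negative and 18 positive fold changes, with a median of -0.0063. Without overlap of the groups 4 were lower and 2 higher, beside 7.15% and 7.35% of all tested genes.

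Over both backgrounds, TGFb1 and TS together against Con and STC1 together, Gsk3b was the 1 member called, at -0.14 (SE 0.0263, edgeR adjusted p = 0.000544), beside 4.7% of all tested genes called, of which 2.31% of all fell and 2.39% rose. Its 6 libraries with TGF-β1 lay between 76.8 and 83.85 CPM and its 6 libraries without between 82.2 and 93.6 CPM, so that 1 library of each kind overlapped. It was called in all 12 fits that left out 1 library and with the length trend removed (-0.11, adjusted p = 0.00846). Fgfr1 was the 1 member whose 6 libraries with TGF-β1 (343 to 354.9 CPM) all lay below its 6 libraries without (355.6 to 385 CPM), as 0.816% of all tested genes did, at -0.059 (SE 0.0196, adjusted p = 0.0643). Pik3r1 was at -0.064 (adjusted p = 0.0731), Phlpp1 at -0.12 (0.131) and Irs1 at -0.09 (0.191). Akt1 was at 0.044 (SE 0.0209, 95% interval 0.0018 to 0.085, adjusted p = 0.253).

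Whether the STC-1 effect differed with TGF-β1 present was tested by the interaction, the TS minus TGFb1 difference less the STC1 minus Con difference. No member was called by edgeR or DESeq2, with 0% of all tested genes called, and 5 members had an unadjusted p under 0.05, beside 8.29% of all tested genes. The smallest p were those of Phlpp1 at 0.26 (SE 0.0951, adjusted p = 0.419) and Irs1 at 0.19 (SE 0.0782, adjusted p = 0.493). Phlpp1 stood at 22.4 ± 1.55 CPM in TS, 20 ± 1.86 in TGFb1, 22.3 ± 0.387 in STC1 and 23.8 ± 1.36 in Con libraries (SD, n = 3 each). Irs1 stood at 29.3 ± 1.53, 28.6 ± 0.487, 29.3 ± 0.793 and 32.5 ± 1.02 CPM in the same order. The Irs1 mean in TS libraries was thus near those of TGFb1 and STC1 libraries and below that of Con libraries. Gsk3b was at 0.0025 (SE 0.0526, 95% interval -0.1 to 0.11).

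Pairs of genes were compared as the log2 ratio of their counts inside each library, which does not depend on how libraries are scaled. Most pairs are paralogs, but Tsc1 to Tsc2 and Rictor to Rptor are not. For 9 pairs and 2 factors, 18 tests in all, none was called by an exact two-sided permutation test within the levels of the other factor, for which the smallest possible p was 0.005. After adjustment over 18 tests a lone pair at that p would have 0.09, so no single pair could be called and the absence of calls carries no information on any one pair. Phlpp1 over Phlpp2 averaged -0.79 ± 0.106 in libraries with TGF-β1 and -0.65 ± 0.0793 in those without (SD, n = 6 each; exact permutation p = 0.05, adjusted p = 0.495). The ratio of counts itself was 0.575, 0.551 and 0.519 in TGFb1 libraries, against 0.708, 0.628 and 0.647 in Con libraries, without overlap. With STC-1 present the groups overlapped, at 0.582, 0.627 and 0.626 in TS libraries, against 0.622, 0.614 and 0.613 in STC1 libraries. Separation without STC-1 was not particular to this pair. Rps6kb1 over Rps6kb2 was 2.43, 2.43 and 2.31 in TGFb1 libraries, against 2.03, 2.18 and 2.1 in Con libraries. Its TS and STC1 libraries overlapped (exact permutation p = 0.17 over all 12 libraries). Gsk3b over Gsk3a averaged -0.093 ± 0.055 with TGF-β1 and -0.0011 ± 0.0852 without (SD, n = 6 each; exact permutation p = 0.055, adjusted p = 0.495). Its count ratio was 0.911, 0.924 and 0.903 in TS libraries, against 0.943, 1.06 and 0.974 in STC1 libraries, without overlap. Without STC-1 the groups overlapped, at 0.99, 0.976 and 0.923 in TGFb1 libraries, against 0.933, 1.03 and 1.07 in Con libraries. The balance of Akt2 to Akt1 was -0.51 ± 0.0462 with TGF-β1 and -0.47 ± 0.058 without (exact permutation p = 0.32), and that of Rictor to Rptor -0.18 ± 0.046 and -0.24 ± 0.0828 (exact permutation p = 0.195).

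**Figure D4:**
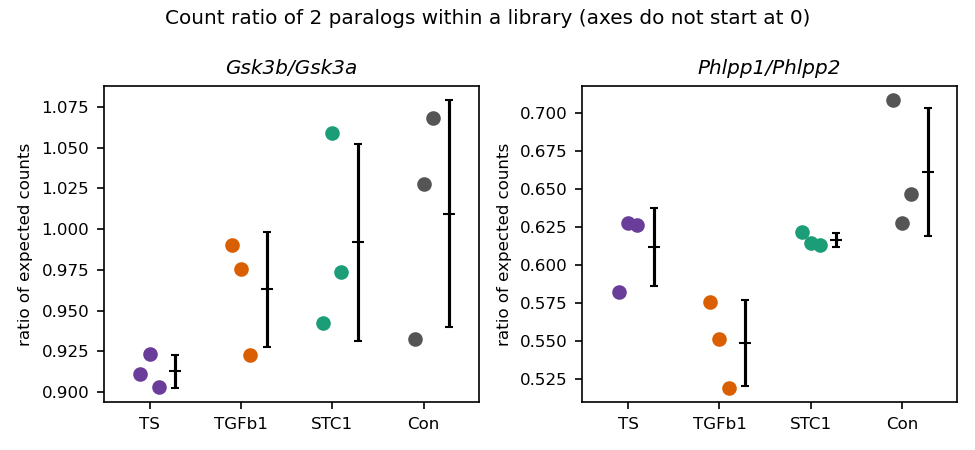
Ratio of expected counts of Gsk3b to Gsk3a and of Phlpp1 to Phlpp2 inside each library, 1 point per library, with the mean and SD (n = 3) of each group; the axes do not start at 0. The 3 TGFb1 libraries are lowest for Phlpp1 over Phlpp2 (0.519 to 0.575), and the TS libraries are lowest on average for Gsk3b over Gsk3a (0.903 to 0.924).

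Other genes of the pathway were called in small numbers in TGFb1 against Con libraries, where 3.99% of all tested genes were called, 2.08% of all falling and 1.9% rising, and 17.7% had an unadjusted p under 0.05. Of 22 genes on the AKT side, Sgk1, which encodes an AKT-related kinase activated by mTORC2, rose in TGFb1 against Con libraries, with 448.7 ± 9.27 CPM in TGFb1 and 416.9 ± 10.4 CPM in Con libraries (SD, n = 3 each; log2 fold change 0.11, SE 0.0276, edgeR adjusted p = 0.015). Foxo3, a transcription factor that AKT keeps out of the nucleus, fell to 64.8 ± 1.37 CPM in TGFb1 libraries, against 71.7 ± 2.83 CPM in Con libraries (-0.15, SE 0.0395, adjusted p = 0.0211). Both were also called in TS against Con libraries, Sgk1 at 0.12 and Foxo3 at -0.23. There Tbc1d1 of the same list fell as well, so that 2 fell (9.09%) and 1 rose (4.55%), beside 2.88% and 3.18% of all tested genes. In STC1 against Con libraries neither Sgk1 nor Foxo3 was called, Foxo3 being at -0.16 (adjusted p = 0.0749).

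Among 26 tested receptors, adaptors and ligands beside the members, 4 fell (15.4%) and 1 rose (3.85%) in TGFb1 against Con libraries, beside 2.08% and 1.9% of all tested genes. Those that fell were the PDGF receptor genes Pdgfra (-0.21) and Pdgfrb (-0.16), the FGF receptor gene Fgfr2 (-0.16) and Igf2r (-0.1), the gene of a receptor that clears IGF-2. Ereg, which encodes the EGF receptor ligand epiregulin, rose to 30.6 ± 2.54 CPM in TGFb1 libraries, against 25.8 ± 0.944 CPM in Con libraries (0.25, SE 0.0607, adjusted p = 0.0102). The median of this list was -0.022. Both PDGF receptor genes are also on the fibroblast marker list.

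In TGFb1 against Con libraries 1 of 18 mTORC1 effectors fell (5.56%, beside 2.08% of all tested genes) and none rose. It was Srebf2 (-0.094, edgeR adjusted p = 0.0418), the gene of the sterol-regulated transcription factor SREBP2. None of 33 genes of the amino acid and lysosome arm and none of 17 phosphoinositide genes was called by edgeR in TGFb1 against Con libraries, with 6 (18.2%) and 2 (11.8%) at an unadjusted p under 0.05, beside 17.7% of all tested genes. In TS against Con libraries, where 6.06% of all tested genes were called, Pik3c2a, a class II PI3K gene, fell (-0.11, edgeR adjusted p = 0.0415). Among the mTORC1 effectors Rps6 rose there (edgeR adjusted p = 0.0167) and none fell, beside 3.18% and 2.88% of all tested genes. In the same comparison Lamtor5, a subunit gene of the lysosomal Ragulator complex, rose (0.16, adjusted p = 0.0323), and Castor2, of the arginine sensor family (-0.25, 0.0332), and Fnip1, the gene of a folliculin partner (-0.13, 0.034), fell. Pik3c2a (-0.097, adjusted p = 0.0113) and Fnip1 (-0.1, 0.0172) also fell in the average over both backgrounds of TGF-β1. The mTORC1 effector gene Pdcd4 fell in that average too (edgeR adjusted p = 0.0372), where 2.31% of all tested genes fell. In STC1 against Con libraries none of the genes of these 5 lists was called by edgeR, nor in TS against TGFb1 libraries.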

How the data were processed

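Per the labels' protocols, poly-A RNA extracted with TRIzol was made into libraries with the MGIEasy kit, and GRCm39 is the genome build in the submitters' processing notes. The values the authors deposited are expected counts per gene, read as such because most but not all are whole, and are not scaled between samples. Which aligner, counting program and strand setting were used is not stated in the sources used here, so reads of overlapping antisense genes cannot be told apart. Of the members, 6 had counts that were not whole within 1e-06 (Pik3ca, Gsk3a, Tsc2, Mlst8, Igf1r and Gab1), for a reason the sources used here do not give. Symbols came from RefSeq (GRCm38, an earlier build) by gene number, for 16177 of 16300 genes.

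Counts were rounded, filtered with filterByExpr (11763 genes kept), scaled by TMM and fitted in 1 model of all 12 libraries with 1 mean per group by edgeR 4.0.16 in R 4.3.3 (quasi-likelihood test, robust, two-sided, 8 residual degrees of freedom). The 8 comparisons were those between single groups except TGFb1 against STC1, which was not run, the averages over both backgrounds and the interaction. Intervals are 95% and cover the spread between libraries. Tests and intervals used more degrees of freedom, because the spread of a gene was moderated by that of other genes. They were 58 for most members and 42.7 for Mlst8. Transcript length is that of the longest coding GENCODE transcript with a RefSeq match. Ratios of the gene pairs were tested by exact permutation with Benjamini-Hochberg adjustment over 18 tests. The steps were tested on simulated data. Between replicates the chi-square of counts divided by its degrees of freedom was 1.46 to 2.46, more than counting noise gives. The alternatives were DESeq2 1.42.0, scaling to total counts in place of TMM, dropping the low count filter, keeping genes averaging 50 counts or more, fitting the compared groups alone, a replicate block, removal of each library's trend with transcript length, and leaving out each library.

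The members and lists were chosen with earlier results of these data known. Values per library are given for called members, for the 2 members with the smallest p each way in TGFb1 against Con and STC1 against Con libraries, and for members a sentence singles out (Fgfr1 in TGFb1 against Con and Akt2 and Pik3cd in TS against TGFb1 libraries were chosen after their values were seen). Of other lists up to 4 called genes are named, or else those with the smallest p, and of gene pairs the 2 with the smallest p. Igf2r and the pairs Akt2 to Akt1, Rictor to Rptor and Rps6kb1 to Rps6kb2 were added after their values were seen. Of the genes this rule picks, 1 is not reported here.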

Additional observations from a re-analysis of the deposited data

How the results depend on the processing

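No called member changed direction under any alternative. In TGFb1 against Con libraries 3 members were called, and 1 by DESeq2 (Gsk3b, with no adjusted p for 10 of the 36) or with the length trend removed (Phlpp1). Leaving out 1 library gave between 0 and 3, with 0 without TGFb1 replicate 3 and 1 without Con replicate 1 or 2 or TGFb1 replicate 1 or 2. In TS against Con libraries 2 were called, and 4 without TMM (Insr and Pik3r1 added), 1 with only the compared groups or with the length trend removed, and between 1 and 2 leaving out 1 library. For the average over both backgrounds of TGF-β1, 1 was called, and 2 by DESeq2, 3 without TMM and between 1 and 2 leaving out 1 library. In the other 5 comparisons every alternative run gave 0. The ratios of gene pairs also gave 0, but no single pair could be called at 18 tests, so this says nothing about stability. The members' transcripts were long (median 6246 nucleotides, against 3096 over 11482 tested genes), and over these genes the fold change had a Spearman correlation with length of -0.194 in TGFb1 against Con libraries, a description across genes that are not independent. With that trend removed, the members' median was -0.015 in TGFb1 against Con libraries, against -0.038 before, and the medians near 0 in TS against STC1 and TS against TGFb1 libraries turned to 0.0074 and 0.0063. The cause of these shifts was not tested.

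The labels number the replicates 1 to 3 in each group, and the main fit did not pair samples by these numbers. Whether equal numbers mark pairs is not settled. Deviations of same-numbered libraries correlated between -0.023 and 0.24, with 6 of 18 pairs over 0.1, and those of other numbers between -0.21 and 0.14. Of 12 libraries 10 correlated best on average with their own number, a hint from the data and not from the design. With the replicate number as a replicate block 4 members were called in TGFb1 against Con libraries (Fgfr1 added), 3 for the TGF-β1 average (Fgfr1 and Pik3r1 added), 2 in TS against Con libraries and 0 in the others. Deptor and Pik3cd, the members with the fewest counts, had the widest intervals, with 95% limits as far as 0.77 and 0.71 in the interaction.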

Other observations

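Across the members with a listed start, 32 of 36, there were 46 windows of 250 bases before a start. The GC box letters GGGCGG were in 32 of these windows (69.6%), against 32.7% of all 32851 windows, CCAAT in 11 (23.9%), against 33.8%, and CACGTG in 3 (6.52%), against 6.02%. These are counts of letters, windows of 1 gene share sequence, and no test was made. The windows compared with were neither limited to tested genes nor matched for GC content, so the gap cannot be read as a trait of the pathway.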
